A study of Mus musculus with 18 samples.

Results

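The genes described here are those of eicosanoid synthesis and signalling together with the phospholipases A2, measured in exorbital lacrimal glands (LGs) of mice that do or do not develop autoimmune dacryoadenitis. They were taken by gene symbol from the deposited count table and comprise the phospholipases A2 and the receptor Pla2r1, cyclooxygenases, prostanoid synthases and breakdown enzymes, lipoxygenases and their partner Alox5ap, the leukotriene synthases, and the receptors for prostanoids, leukotrienes and platelet-activating factor (PAF), with Ephx2 and Ptgfrn. The symbols found 59 of the 23337 genes in the table. Of these, 36 held enough reads to be tested, 20 held reads in some libraries but stayed under the count minimum, and 3 (Alox12b, Pla2g4d and Pla2g2a) held none in any library. The tested genes are not all of the kind that every group expresses: 19 of the 36 passed the minimum of 0.658 CPM (counts scaled to the size of the library) in every library of all 6 groups, 15 did so only in some groups and 2, Ptgis and Ptger3, in none. A gene that passed only through the group where it is high had to differ. Among genes called between the strains, Ptger2, Pla2g2f and Ptgds passed in 1 group each. Ptger4, Ptgir and Tbxas1 passed only in the NOR groups of 8 and 16 weeks, and Alox12e only in the 3 NOR groups.

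Each group holds 3 RNA-seq libraries of exorbital LGs from male mice, either NOR/LtJ or BALB/cJ, aged 3, 8 or 16 weeks. NOR is an inbred strain related to NOD whose males develop lymphocytic infiltration of the LG, and BALB/c served as the control. Strain and disease therefore cannot be told apart at 8 or at 16 weeks. By the paper's histology, infiltration was absent from both strains at 3 weeks, mild in NOR at 8 weeks and extensive in NOR at 16 weeks. Whether disease without visible infiltration was present at 3 weeks was not tested. A library of 3 weeks came from 1 mouse, whereas at 8 and 16 weeks each library pooled 2 to 3 mice, so that age and pooling also changed together. Sample titles name the diseased strain NOD and the genotype labels name it NOR/LtJ, and NOR is used here.

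Phospholipases A2 cut fatty acids, among them arachidonic acid, from the middle carbon of membrane phospholipids. Cyclooxygenases turn arachidonic acid into an unstable prostaglandin that terminal synthases convert to the prostaglandins E and D, prostacyclin or thromboxane, and lipoxygenases turn it into leukotrienes and hydroxy fatty acids. These mediators act close to their source through G protein-coupled receptors and control blood flow, pain, secretion and the traffic of leukocytes. In a gland, epithelial cells, vessels and resident or entering leukocytes each carry their own set of these enzymes and receptors. In RNA from a whole gland, a change in the number of cells of a type and a change in the RNA per cell cannot be told apart.

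Libraries held 6378613 to 20493076 counts, and 3 counts corresponded to 0.146 to 0.470 CPM. The glands carried the markers of lacrimal acinar cells (5 of 5 genes tested, summed 7859 to 8497 CPM in BALB/c against 4323 to 6783 CPM in NOR at 16 weeks). Genes of the neighbouring parotid gland were present unevenly: their summed level was 69672 and 70423 CPM in replicates 2 and 3 of the 3-week NOR group and 72.4 CPM in replicate 1, against 1.53 to 14379 CPM in the BALB/c glands of that age and 5.21 to 4969 CPM in NOR at 16 weeks. Replicate 3 of the 16-week BALB/c group stood apart in several genes given below. For some of the genes whose call or value moved without these libraries, the value or the call without them is given beside it. Other calls and values that moved are not given.

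Between the strains, 15 of the 36 tested genes were called at 1 or more ages, where a call is an adjusted p of at most 0.05 in edgeR's quasi-likelihood test and at least a 2-fold difference. At 3 weeks 4 genes were called, 3 higher and 1 lower in NOR, while 5.26% of all 13376 genes tested were called (3.54% higher and 1.71% lower). At 8 weeks the call fell on 9 genes, 7 higher and 2 lower (all genes, 11.6%, of which 8.93% higher and 2.65% lower), and at 16 weeks on 12, 10 higher and 2 lower (all genes, 19.4%, of which 14.1% higher and 5.22% lower). Without replicate 1 of the 3-week NOR group 2 genes were called at 3 weeks (Pla2g2f and Pla2g7). Without replicate 3 of the 16-week BALB/c group 19 were called at 16 weeks, among 42 that then passed the count minimum. The share of all genes called in these fits is not given here, so these counts show only how calls depend on single libraries. No gene was called at all 3 ages, and 8 were called at both 8 and 16 weeks in the same direction. These 8 were Alox5ap, Hpgds, Tbxas1, Ptger4, Ptgir and Ptafr, which were higher in NOR, and Pla2g12a and Ptgds, which were lower. By adjusted p alone the counts were 7, 15 and 20 of 36, beside 15%, 27.8% and 50.9% of all genes. The median log2 fold change of the 36 genes was 0.23, 0.32 and 0.55 at 3, 8 and 16 weeks, and that of all genes tested 0.01, 0.02 and -0.01. Of the 36 genes, 11, 17 and 27 had NOR and BALB/c libraries that did not overlap at 3, 8 and 16 weeks, as did 31.3%, 45.1% and 57.3% of all genes.

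**Figure D1:**
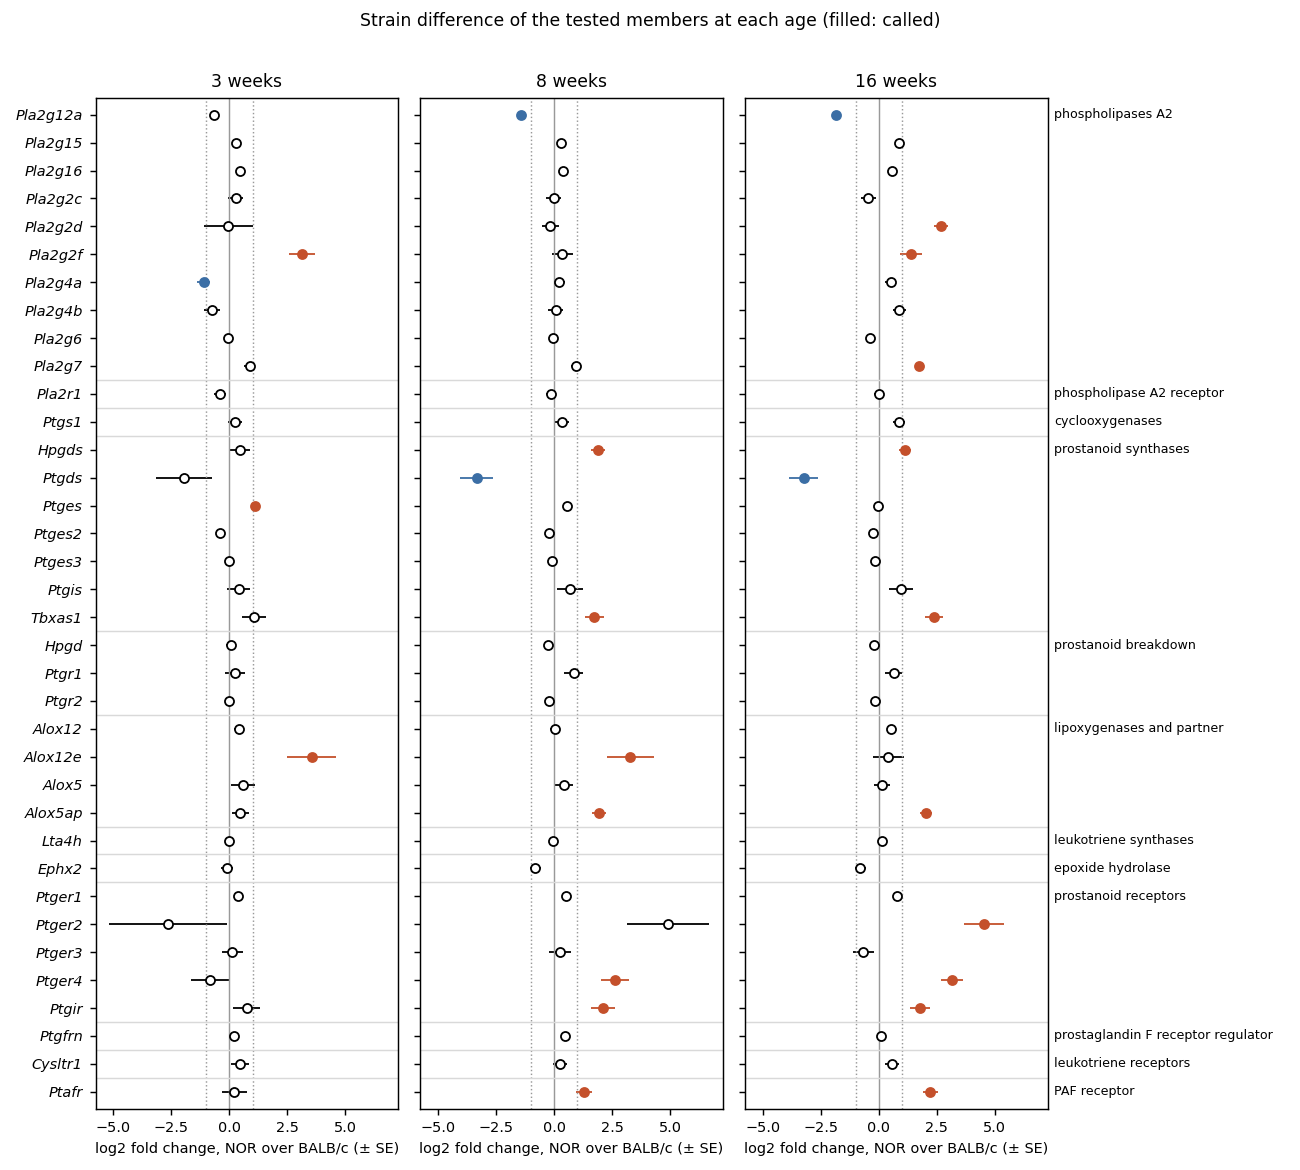
Log2 fold change of NOR over BALB/c (x axis, points, with bars of 1 SE) for each of the 36 tested genes, in rows grouped by role, at 3, 8 and 16 weeks. Filled points are called and open points are not, and the dotted lines mark a 2-fold difference. There are 4 filled points at 3 weeks, 9 at 8 and 12 at 16.

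Per kilobase (kb) of exon, which allows levels of different genes to be compared, Pla2g12a was the most abundant of the 59 genes with a mean of 35.2 CPM per kb over all libraries. It was followed by Lta4h (9.03), Ptges3 (7.69), Ptgr2 (5.83) and Pla2g16 (4.86 CPM per kb). Lta4h encodes the hydrolase that makes leukotriene B4, Ptges3 a cytosolic prostaglandin E synthase that is also a cochaperone of Hsp90, Ptgr2 a prostaglandin reductase, and Pla2g16 a phospholipase A2 best known from adipose tissue. Of these 5 genes only Pla2g12a was called between the strains.

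**Figure D2:**
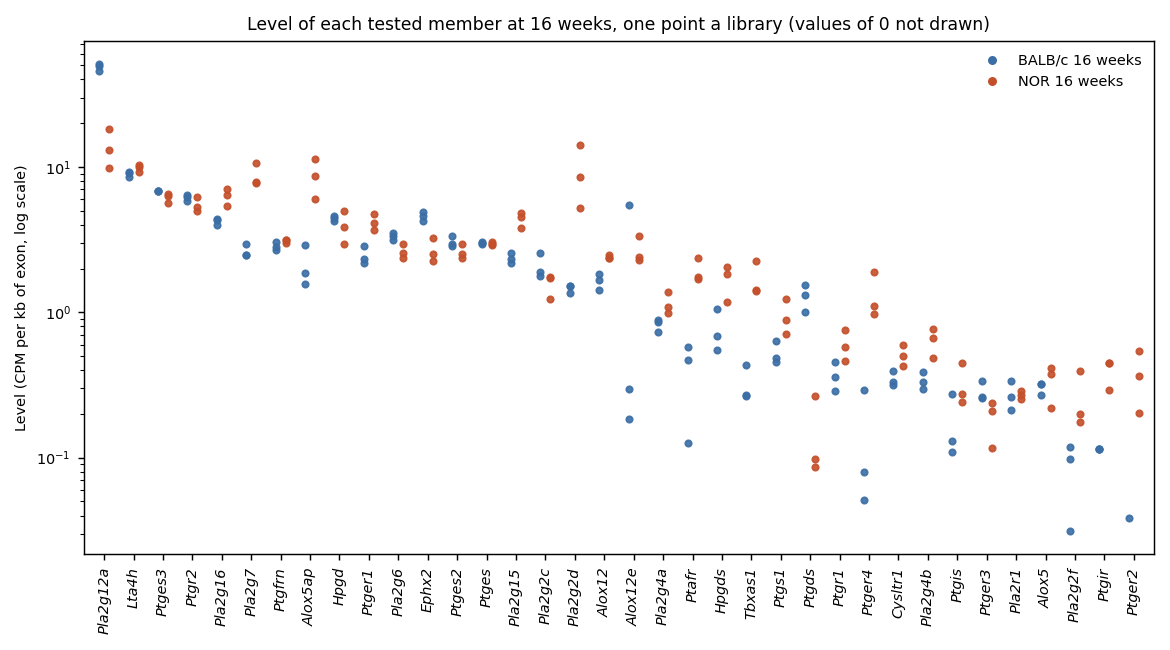
Level of each of the 36 tested genes at 16 weeks in CPM per kb of exon (y axis, log scale), ordered by the mean over all 18 libraries, with 1 point for each of the 3 BALB/c and 3 NOR libraries and values of 0 not drawn. Pla2g12a lies highest in BALB/c, and the NOR points of Pla2g2d, Alox5ap and Pla2g7 lie above their BALB/c points.

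Pla2g12a (chr3:129878622-129895821, plus strand, mm10) encodes a secreted phospholipase A2. In BALB/c LGs it was at 79.6, 72.6 and 77.8 CPM at 3 weeks, 92.6, 88.4 and 85 CPM at 8 weeks and 84.3, 82.1 and 75 CPM at 16 weeks. In NOR LGs it was at 46.6, 46.3 and 51.8 CPM at 3 weeks, 29.1, 35.5 and 33.4 CPM at 8 weeks and 30.2, 16.4 and 21.5 CPM at 16 weeks. Every NOR library lay below every BALB/c library at each age, and the NOR group mean was lower at each later age while BALB/c libraries stayed between 72.6 and 92.6 CPM. The log2 fold change was -0.67 (SE 0.14, adjusted p = 0.00211) at 3 weeks, which misses the 2-fold cutoff, -1.44 (SE 0.14, adjusted p = 3.32e-07) at 8 weeks and -1.84 (SE 0.14, adjusted p = 1.00e-08) at 16 weeks. The difference itself changed from 3 to 16 weeks by -1.17 (SE 0.20, adjusted p = 5.43e-04) on the log2 scale. Markers of acinar cells also stood lower in NOR at 16 weeks, with a median log2 fold change of -0.69 over 5 genes and a call for 1 of them (Elf5, -1.39). At 3 and 8 weeks their median was -0.32 and -0.28, with 0 of 5 called at either age, but the 5 genes did not share a direction. At 8 weeks Elf5 was at 40.2, 41.4 and 52 CPM in NOR against 90.8, 82.7 and 84.8 CPM in BALB/c. Bhlha15 was at 712, 730 and 818 CPM against 1280, 1298 and 1461 CPM. Chrm3 was lower and Aqp5 higher in NOR at that age, and Lpo overlapped. At 3 weeks Elf5, Bhlha15 and Chrm3 were lower in NOR without overlap, Lpo was higher, and Aqp5 overlapped. The summed level of the 5 markers at 3 weeks was 10760 to 12178 CPM in NOR against 10020 to 10572 CPM in BALB/c. In the 16-week NOR libraries 1, 2 and 3 the acinar sum was 6783, 4323 and 5377 CPM, an order that Pla2g12a shared. Most of that sum was Lpo (5780, 3704 and 4558 CPM), and of the 5 genes only Elf5 had another order (36.9, 26.7 and 26.3 CPM). The part of acinar cells in this result was not tested.

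The 21 phospholipase A2 genes, Pla2g12a among them, stood as a sum at different levels in the strains, and in different proportions. Their summed level was 66.4 ± 2.83 CPM per kb (SD, n = 3) in BALB/c and 49.3 ± 3.51 in NOR at 16 weeks. Pla2g12a made up 77.5% ± 2.81, 76.6% ± 1.48 and 73.3% ± 1.62 of that sum in BALB/c at 3, 8 and 16 weeks. In NOR its share was 63.3% ± 1.92, 49.2% ± 3.23 and 28.2% ± 10.2. At 16 weeks Pla2g2d and Pla2g7 held 18.4% ± 7.69 and 17.7% ± 1.91 of the sum in NOR, against 2.22% ± 0.222 and 3.97% ± 0.568 in BALB/c. The lower sum in NOR at 16 weeks thus repeats the lower level of Pla2g12a. What remained of the sum without Pla2g12a was higher in NOR than in BALB/c at that age.

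**Figure D3:**
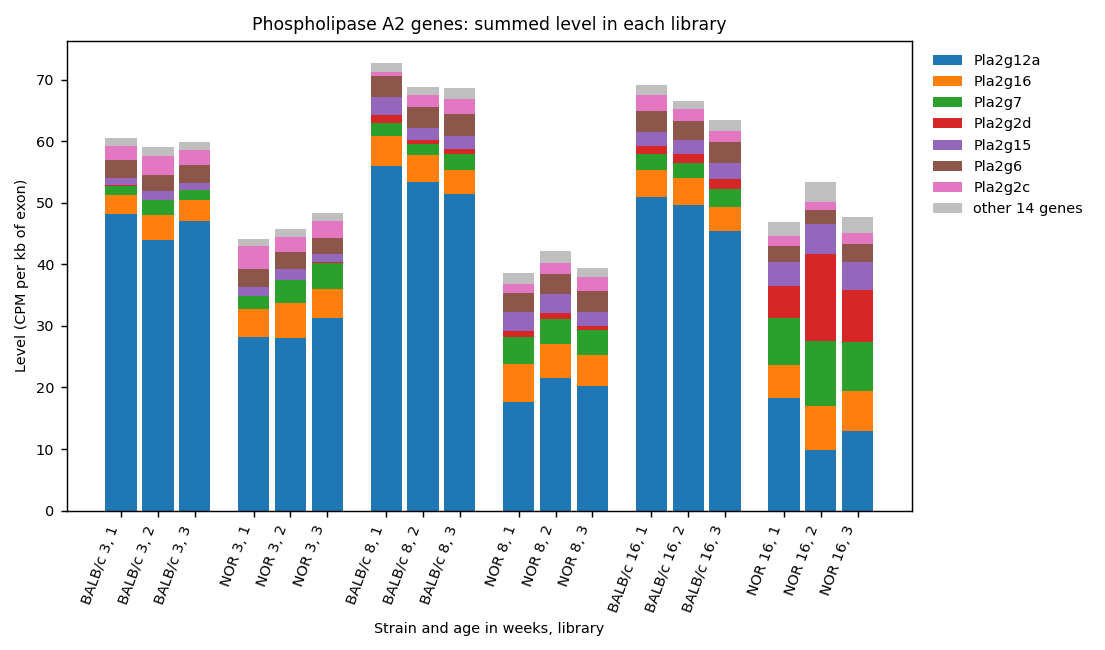
Summed level of the 21 phospholipase A2 genes in CPM per kb of exon (y axis, from 0), with 1 stacked bar for each of the 18 libraries, coloured by gene with 14 genes of lower level shown together. The Pla2g12a segment is the largest in all BALB/c bars and shrinks in NOR, where the Pla2g7 and Pla2g2d segments are taller at 16 weeks than in any other group.

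Pla2g2d (chr4:138775735-138782143, plus strand) encodes a secreted phospholipase A2 known from dendritic cells and lymphoid tissue. BALB/c glands held 0.274, 0.0807 and 0.127 CPM at 3 weeks, 2.83, 1.61 and 1.92 CPM at 8 weeks and 3.09, 3.43 and 3.46 CPM at 16 weeks. The NOR libraries were at 0.0714, 0.19 and 0.352 CPM at 3 weeks, 2.35, 1.98 and 1.29 CPM at 8 weeks and 11.7, 31.9 and 19.2 CPM at 16 weeks. The strains overlapped at 3 and 8 weeks, and at 16 weeks the NOR libraries lay apart from the BALB/c ones and also from each other, with replicate 2 the highest. Its fitted log2 fold change was -0.16 at 8 weeks (adjusted p = 0.796) and 2.67 (SE 0.29, adjusted p = 4.46e-07) at 16 weeks, and without replicate 2 of the NOR group it was 2.24. It was the 1 tested gene whose change of strain difference between 8 and 16 weeks passed both cutoffs, at 2.83 (SE 0.47, adjusted p = 0.00282), a comparison in which 2.85% of all genes were called (2.04% upward, 0.807% downward).

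Pla2g7 (chr17:43568451-43612201, plus strand) encodes the secreted PAF acetylhydrolase, which macrophages are known to make. The BALB/c libraries were at 2.74, 4.44 and 2.98 CPM at 3 weeks, 4.17, 3.36 and 4.74 CPM at 8 weeks and 4.75, 4.72 and 5.62 CPM at 16 weeks. NOR glands held 4.07, 7.13 and 8.08 CPM at 3 weeks, 8.15, 7.75 and 7.76 CPM at 8 weeks and 14.8, 20.3 and 15.2 CPM at 16 weeks. The groups overlapped at 3 weeks by 1 library and not at the later ages. That library was NOR replicate 1, low in parotid genes, at 4.07 CPM. The parotid-rich replicates 2 and 3 were at 7.13 and 8.08 CPM, and the part of parotid tissue was not tested. The log2 fold change of Pla2g7 was 0.89, 0.94 and 1.74 at 3, 8 and 16 weeks, with adjusted p of 0.0146, 0.00239 and 7.89e-07. Only the last passed the 2-fold cutoff. Without replicate 1 of the 3-week NOR group, Pla2g7 was called at 3 weeks too. Of its 1915 exon bases, 280 (14.6%) overlap exons of 1700071M16Rik on the other strand, and since the counting did not use strand, reads of these genes cannot be told apart there.

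Pla2g4a (chr1:149829622-149961284, minus strand) encodes the cytosolic phospholipase A2 alpha, the enzyme best known for releasing arachidonic acid on stimulation. In BALB/c it was at 1.75, 2.91 and 2.03 CPM at 3 weeks, 2.36, 2.24 and 2.2 CPM at 8 weeks and 2.09, 2.51 and 2.45 CPM at 16 weeks. The level in NOR was 1.0, 1.33 and 0.527 CPM at 3 weeks, 3.05, 2.79 and 2.12 CPM at 8 weeks and 2.83, 3.92 and 3.08 CPM at 16 weeks. BALB/c libraries stayed between 1.75 and 2.91 CPM, and the NOR libraries lay below all BALB/c libraries at 3 weeks and above them at 16 weeks. The 3-week log2 fold change was -1.11 (SE 0.29, adjusted p = 0.0127), and at 8 and 16 weeks 0.23 and 0.50 (adjusted p = 0.522 and 0.071). The 3-week call was lost in 4 of 13 other settings, among them leaving out replicate 1 of the NOR group, the library with the low parotid level, where the log2 fold change was -1.10 (SE 0.35, adjusted p = 0.0506). Without the parotid-rich replicates 2 and 3 in turn it was -1.38 and -0.93, the latter not called. The strain difference rose by 1.61 (SE 0.37, adjusted p = 0.00436) from 3 to 16 weeks.

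Pla2g2f (chr4:138750533-138757598, minus strand) encodes a secreted phospholipase A2 known from the epidermis and was near the limit of detection. Its counts in BALB/c were 3, 1 and 1 at 3 weeks, 6, 4 and 8 at 8 weeks and 5, 1 and 6 at 16 weeks. In NOR the counts were 12, 8 and 9, 7, 9 and 10 and 7, 11 and 9. On the CPM scale these were 0.164, 0.0807 and 0.0633 in BALB/c and 0.857, 0.761 and 1.58 in NOR at 3 weeks, and 0.238, 0.0761 and 0.288 and 0.483, 0.431 and 0.957 at 16 weeks. NOR lay above BALB/c without overlap at 3 and 16 weeks and overlapped with it at 8 weeks. The log2 fold change was 3.12 (SE 0.56, adjusted p = 6.13e-04) at 3 weeks, 0.36 (adjusted p = 0.611) at 8 weeks and 1.38 (SE 0.49, adjusted p = 0.0237) at 16 weeks, and the last call was lost under DESeq2 and on leaving out any of 3 libraries. The gene passed the count minimum only through the 3-week NOR group, where it was highest. Without the parotid-rich NOR replicates 2 and 3 in turn, the 3-week value was 3.30 and 2.84. Its neighbours on chromosome 4 include Pla2g2d, Pla2g2c, Pla2g2a, Pla2g2e and Pla2g5. Of these Pla2g2c, with a mean of 3.43 CPM over all libraries, was not called, while Pla2g2e and Pla2g5 held at most 4 and 2 counts in any library.

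Of the other phospholipases A2, Pla2g16 was at 11.1, 14.7 and 12.2 CPM at 3 weeks, 17.1, 15 and 14.1 CPM at 8 weeks and 15.4, 15.3 and 14.1 CPM at 16 weeks in BALB/c. In NOR Pla2g16 was at 15.8, 20.2 and 16.3 CPM at 3 weeks, 22.2, 19.8 and 18.1 CPM at 8 weeks and 19.1, 24.9 and 22.8 CPM at 16 weeks. The NOR libraries lay above the BALB/c ones at each age by less than 2-fold, with log2 fold changes of 0.47, 0.38 and 0.58 (adjusted p = 0.0204, 0.0278 and 6.64e-04). Pla2g15, the lysosomal enzyme, showed a log2 fold change of 0.89 at 16 weeks (adjusted p = 1.69e-04) and Pla2g6, the calcium-independent enzyme, one of -0.36 (adjusted p = 0.00544). Pla2g4b, a cytosolic enzyme, was at 1.47 ± 0.314 CPM, 0.809 ± 0.295 CPM and 1.3 ± 0.175 CPM in BALB/c at 3, 8 and 16 weeks. Its NOR values were 0.922 ± 0.307 CPM, 0.856 ± 0.0721 CPM and 2.46 ± 0.561 CPM. Its strain difference rose from -0.75 at 3 weeks to 0.89 at 16 weeks, a change of 1.64 (SE 0.44, adjusted p = 0.0116), although neither difference alone was called. The receptor Pla2r1 had log2 fold changes of -0.41, -0.15 and -0.01, none of them called.

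The promoters of 4 genes with calls, Hpgds, Pla2g7 and Pla2g2d, which were higher in NOR, and Pla2g12a, which was lower, are printed to show the sequence in front of these genes. Each line holds the 250 bases before the annotated start site, 5′ to 3′ on the strand of the gene, from RefSeq on GRCm38.p6 (mm10), with motif matches in capitals. They are chr6:65144731-65144980 on the minus strand for Hpgds, chr17:43568201-43568450 on the plus strand for Pla2g7, chr4:138775485-138775734 on the plus strand for Pla2g2d and chr3:129880934-129881183 on the plus strand for Pla2g12a.
Hpgds: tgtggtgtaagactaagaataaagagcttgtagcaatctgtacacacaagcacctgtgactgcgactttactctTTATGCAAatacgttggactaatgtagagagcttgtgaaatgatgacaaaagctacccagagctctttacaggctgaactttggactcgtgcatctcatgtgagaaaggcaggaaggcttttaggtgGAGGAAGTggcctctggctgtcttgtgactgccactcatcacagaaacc
Pla2g7: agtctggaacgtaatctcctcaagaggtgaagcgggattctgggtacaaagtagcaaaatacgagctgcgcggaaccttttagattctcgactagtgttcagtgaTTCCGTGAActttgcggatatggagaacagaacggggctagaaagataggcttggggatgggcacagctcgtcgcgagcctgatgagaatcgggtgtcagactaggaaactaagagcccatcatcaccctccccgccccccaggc
Pla2g2d: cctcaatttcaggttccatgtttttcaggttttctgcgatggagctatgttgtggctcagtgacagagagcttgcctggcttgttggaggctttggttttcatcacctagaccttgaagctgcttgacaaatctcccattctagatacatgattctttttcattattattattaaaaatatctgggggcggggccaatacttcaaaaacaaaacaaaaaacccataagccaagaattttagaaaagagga
Pla2g12a: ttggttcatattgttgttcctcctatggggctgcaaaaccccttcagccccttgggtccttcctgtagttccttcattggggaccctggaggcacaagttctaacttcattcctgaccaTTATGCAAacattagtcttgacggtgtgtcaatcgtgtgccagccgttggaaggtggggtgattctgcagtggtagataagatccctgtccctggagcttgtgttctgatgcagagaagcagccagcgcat

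The capitals in Hpgds mark a match to the C/EBP motif TTGCNNAA 176 bases and to the PU.1 (ETS) motif GAGGAAGT 49 bases before the start site. In Pla2g7 they mark a match to the gamma-activated site TTCNNNGAA 145 bases before it, and in Pla2g12a a C/EBP match 131 bases before it, while none of the motifs matched in Pla2g2d. The motifs were searched on both strands, along with the interferon response element, the NF-kB site GGGNNTTCC, the CRE TGACGTCA, the E-box CACGTG and the TATA box TATAAA. Among all 32851 RefSeq promoters of this length, PU.1 matches occurred in 2.44%, C/EBP matches in 9.56% and gamma-activated sites in 7.02%. In the promoters of the 11 genes that were higher in NOR, never lower, and had a RefSeq entry, each of these 3 motifs and the TATA box (12.4% of all promoters) occurred in 1. The interferon, NF-kB, CRE and E-box letters occurred in 0 of the 11, against 2.98%, 4.98%, 1.55% and 6.02% of all promoters. RefSeq entries were matched for 47 of the 59 genes. For Pla2g12a the RefSeq start site lies inside the gene as the count table gives it. A match is a description of letters and not of binding.

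Both cyclooxygenases were expressed at low levels. Ptgs1, the constitutive form, was at 1.38 ± 0.23 CPM, 0.987 ± 0.297 CPM and 1.5 ± 0.271 CPM in BALB/c at 3, 8 and 16 weeks. In NOR it was at 1.61 ± 0.177 CPM, 1.25 ± 0.226 CPM and 2.7 ± 0.766 CPM. Its 16-week log2 fold change was 0.88 (SE 0.25, adjusted p = 0.00673), under the 2-fold cutoff, and within NOR it rose from 8 to 16 weeks by 1.15 (SE 0.26, adjusted p = 0.00232).

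Ptgs2, the inducible form, stayed under the count minimum and went the other way at 16 weeks. Its counts were 1, 2 and 0 at 3 weeks, 2, 0 and 1 at 8 weeks and 22, 21 and 12 at 16 weeks in BALB/c. In NOR they were 1, 1 and 0, 4, 5 and 3 and 2, 8 and 1. All 3 of the 16-week BALB/c libraries thus exceeded every other library. In the fit without a count minimum its log2 fold change was -2.24 (SE 0.57, adjusted p = 0.00222) between the strains at 16 weeks and 3.78 (SE 0.71, adjusted p = 0.00412) between 16 and 8 weeks in BALB/c, where 4.45% of all genes were called lower and 0.387% higher. Immediate early genes respond within minutes to stimulation or handling of tissue, and the sum over 10 of them moved with Ptgs2. This sum was 129.5 to 187 CPM in BALB/c at 16 weeks, against 86.4 to 88.4 CPM at 8 weeks and 96.7 to 118 CPM in NOR at 16 weeks. Between the strains at 16 weeks Egr1, Fosb and Dusp1 of this list were called lower in NOR (-2.09, -3.43 and -1.05) and 0 of 10 higher. The other 7 were not called. Among them Zfp36 was at 22.5, 29.7 and 26.2 CPM in NOR, above the 21, 22 and 16.4 CPM in BALB/c. The part of these genes in the Ptgs2 values was not tested.

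**Figure D4:**
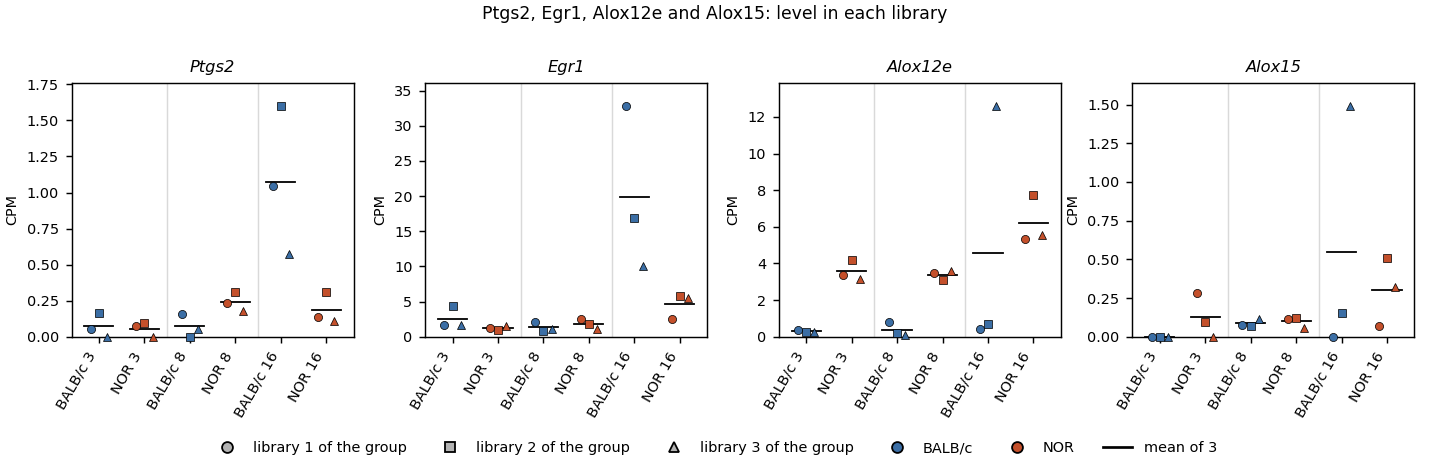
Level in CPM (y axes, from 0) of Ptgs2, of the immediate early gene Egr1, and of the lipoxygenases Alox12e and Alox15 in each of the 18 libraries (points, shaped by replicate number), with a line at the mean of each group of 3. The 16-week BALB/c libraries are the highest for Ptgs2 and Egr1, and replicate 3 of that group alone is far above the others for Alox12e and Alox15.

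Among the prostanoid synthases, the pair that makes prostaglandin D moved in opposite directions. Hpgds (chr6:65117293-65144730, minus strand), the haematopoietic form found in mast cells, macrophages and some T cells, was at 0.712, 0.646 and 0.443 CPM at 3 weeks, 1.42, 0.699 and 1.3 CPM at 8 weeks and 1.81, 2.28 and 3.46 CPM at 16 weeks in BALB/c. The NOR libraries were at 1.0, 0.665 and 0.703 CPM at 3 weeks, 4.57, 4.65 and 3.58 CPM at 8 weeks and 3.87, 6.04 and 6.8 CPM at 16 weeks. The strains overlapped at 3 weeks and did not at 8 and 16 weeks, with replicate 3 the highest BALB/c library at 16 weeks. Its log2 fold change was 0.44 at 3 weeks (adjusted p = 0.572), 1.90 (SE 0.30, adjusted p = 7.86e-05) at 8 weeks and 1.13 (SE 0.26, adjusted p = 0.00134) at 16 weeks, the last being 0.92 without replicate 1 of the BALB/c group and 1.48 without replicate 3. Of the mast cell markers 0 of 5 tested were called at 16 weeks, with a median log2 fold change of -0.46. Among them Kit was at 0.88 and Cpa3 and Mcpt4 at -0.84 and -0.69, so that their sum, 25.6 to 33.8 CPM in BALB/c against 29.7 to 35.8 CPM in NOR, joins opposite directions.

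Ptgds (chr2:25466712-25469749, minus strand), the secreted lipocalin form, was close to the detection limit in NOR. Its counts in BALB/c were 3, 2 and 2 at 3 weeks, 5, 18 and 7 at 8 weeks and 17, 14 and 26 at 16 weeks, or 0.164, 0.161 and 0.127, 0.393, 1.26 and 0.395 and 0.808, 1.07 and 1.25 CPM. In NOR the counts were 0, 1 and 0, 0, 2 and 1 and 1, 2 and 2, or 0, 0.0951 and 0, 0, 0.124 and 0.0588 and 0.069, 0.0784 and 0.213 CPM. No NOR library reached any BALB/c library of its age. BALB/c exceeded NOR by a ratio of 9.81 (95% counting interval 3.05 to 50.2) at 8 weeks and 8.45 (95% counting interval 3.42 to 27) at 16 weeks, intervals that cover counting error only. The fitted log2 fold changes were -3.33 (SE 0.72, adjusted p = 0.00167) and -3.24 (SE 0.62, adjusted p = 2.50e-04).

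Tbxas1 (chr6:38918986-39084579, plus strand) encodes thromboxane synthase, which is found in platelets and in macrophages. BALB/c glands held 0.328, 0.565 and 0.38 CPM at 3 weeks, 1.02, 0.35 and 0.339 CPM at 8 weeks and 0.523, 0.533 and 0.865 CPM at 16 weeks. NOR glands held 1.0, 0.951 and 0.527 CPM at 3 weeks, 2.52, 1.92 and 1.06 CPM at 8 weeks and 2.83, 4.43 and 2.76 CPM at 16 weeks. NOR lay above BALB/c at 8 and 16 weeks without overlap and overlapped with it at 3 weeks. Its log2 fold change was 1.07 at 3 weeks (adjusted p = 0.185), 1.73 (SE 0.42, adjusted p = 0.00404) at 8 weeks and 2.38 (SE 0.38, adjusted p = 3.81e-05) at 16 weeks. Of 5 platelet and megakaryocyte markers 2 were tested at 16 weeks, Itga2b, which was called lower in NOR (-1.75), and Pf4, which was not called (0.46, adjusted p = 0.136). Ppbp, Gp9 and Gp1bb of the same list held at most 0.336 CPM in any library, while Itga2b was at 12.8, 12.5 and 10.8 CPM in BALB/c. The list is therefore a weak measure of platelets in these glands. Macrophage markers summed to 62.3 to 76.8 CPM and 142 to 204 CPM, with 3 of 4 called higher in NOR. Their part in the result was not tested.

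Ptges (chr2:30889471-30903297, minus strand) encodes the inducible prostaglandin E synthase and differed early. The BALB/c libraries were at 5.25, 4.92 and 4.24 CPM at 3 weeks, 8.02, 9.44 and 8.97 CPM at 8 weeks and 10.7, 11 and 11.1 CPM at 16 weeks. The level in NOR was 11.9, 9.98 and 8.44 CPM at 3 weeks, 14.8, 13.2 and 10.6 CPM at 8 weeks and 10.7, 10.6 and 11.2 CPM at 16 weeks. NOR exceeded BALB/c without overlap at 3 and 8 weeks, BALB/c values were higher at each later age, and the strains overlapped at 16 weeks. Its fitted log2 fold change was 1.10 (SE 0.14, adjusted p = 2.23e-05) at 3 weeks, 0.54 at 8 weeks (adjusted p = 0.0033) and -0.01 at 16 weeks, a change of the difference by -1.11 (SE 0.19, adjusted p = 6.14e-04). Without replicate 1 of the 3-week NOR group the 3-week value was 0.95, and without replicates 2 and 3 in turn 1.12 and 1.19. In that library, whose parotid genes were low, Ptges was at 11.9 CPM, the highest of its group.

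The other prostaglandin E synthases, Ptges2 and Ptges3, were not called at any age, and the log2 fold change of Ptges2 was -0.38, -0.22 and -0.25 at 3, 8 and 16 weeks. Ptges3 was at 19.3, 18.5 and 16.6 CPM at 3 weeks, 13.8, 15 and 16.3 CPM at 8 weeks and 13.3, 13.2 and 13.4 CPM at 16 weeks in BALB/c. In NOR Ptges3 was at 19.9999, 19.2 and 13.5 CPM at 3 weeks, 14, 14.3 and 14 CPM at 8 weeks and 11, 12.7 and 12.3 CPM at 16 weeks. In both strains every 16-week library lay below every 3-week library, and the strains overlapped at 3 and 8 weeks. Per kb of exon, Ptges3 made up 44.3% ± 2.66 of the summed level of the 7 prostanoid synthases in BALB/c and 39.6% ± 0.946 in NOR at 16 weeks, Hpgds 4.89% ± 1.31 and 10.7% ± 2.15, Tbxas1 2.08% ± 0.484 and 10.8% ± 2.52, and Ptgds 8.34% ± 1.31 and 0.942% ± 0.589. The sum itself was 15.4 ± 1.03 CPM per kb in BALB/c and 15.6 ± 1.45 in NOR, a difference smaller than its SD in either strain. Prostacyclin synthase, Ptgis, was not called at any age.

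None of the 3 genes of prostanoid breakdown was called between the strains. Ptgr2 was at 16.4, 17.8 and 19 CPM at 3 weeks, 23.4, 21.3 and 22.9 CPM at 8 weeks and 20.4, 21.2 and 19.1 CPM at 16 weeks in BALB/c. In NOR Ptgr2 was at 20.2, 15.5 and 15.5 CPM at 3 weeks, 18.6, 18.7 and 21 CPM at 8 weeks and 20.3, 16.3 and 17.5 CPM at 16 weeks. Hpgd, the dehydrogenase that inactivates prostaglandins E and F, was at 3.49 ± 0.694 CPM and 3.62 ± 0.7004 CPM at 3 weeks in BALB/c and NOR, 7.51 ± 0.886 CPM and 6.29 ± 0.69 CPM at 8 weeks, and 7.63 ± 0.311 CPM and 6.74 ± 1.71 CPM at 16 weeks. It was higher at 8 than at 3 weeks in both strains, by 1.09 (SE 0.19, adjusted p = 2.07e-04) in BALB/c, which was called, and by 0.77 (SE 0.20, adjusted p = 0.00539) in NOR, which was under the 2-fold cutoff. Ptgr1 showed a log2 fold change of 0.64 at 16 weeks (adjusted p = 0.16). Ephx2, the soluble epoxide hydrolase, was lower in NOR by less than 2-fold at 8 and 16 weeks (-0.81 and -0.79, adjusted p = 0.0139 and 0.00762).

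In the leukotriene branch, Alox5ap (chr5:149265058-149288047, plus strand) encodes the membrane protein that presents arachidonic acid to 5-lipoxygenase. In BALB/c it was at 0.876, 1.37 and 1.01 CPM at 3 weeks, 1.34, 1.4 and 1.3 CPM at 8 weeks and 1.33, 1.6 and 2.5 CPM at 16 weeks. Its NOR values were 1.14, 1.62 and 1.93 CPM at 3 weeks, 6.63, 4.46 and 4.35 CPM at 8 weeks and 5.18, 9.61 and 7.44 CPM at 16 weeks. The strains overlapped at 3 weeks and lay apart at 8 and 16 weeks. Its log2 fold change was 0.48 at 3 weeks (adjusted p = 0.437), 1.93 (SE 0.28, adjusted p = 4.53e-05) at 8 weeks and 2.03 (SE 0.26, adjusted p = 3.90e-06) at 16 weeks, and the difference grew from 3 to 16 weeks by 1.55 (SE 0.45, adjusted p = 0.0174). The enzyme itself, Alox5, stayed low: it was at 0.862 ± 0.0883 CPM in BALB/c against 0.95 ± 0.29 CPM in NOR at 16 weeks, a log2 fold change of 0.14 (SE 0.35, adjusted p = 0.77).

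Lta4h was at 18, 20.3 and 18.4 CPM at 3 weeks, 16.8, 19 and 19.1 CPM at 8 weeks and 18.8, 19 and 17.6 CPM at 16 weeks in BALB/c. In NOR Lta4h was at 19.6, 19.96 and 15.1 CPM at 3 weeks, 17.2, 18.2 and 17.8 CPM at 8 weeks and 21.5, 19 and 20.7 CPM at 16 weeks. It was not called at any age, with log2 fold changes of -0.03, -0.04 and 0.14 (SE 0.10, 0.10 and 0.09) at 3, 8 and 16 weeks. Ltc4s, which makes the cysteinyl leukotriene C4, held at most 12 counts in any library and was not tested.

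Apart from Alox5, the lipoxygenases here lie in clusters of similar genes on chromosome 11, and reads that fit several of them were not counted, so their levels are uncertain. Alox12e (chr11:70315613-70322518, minus strand), the epidermal 12-lipoxygenase, was at 0.383, 0.242 and 0.253 CPM at 3 weeks, 0.786, 0.21 and 0.113 CPM at 8 weeks and 0.428, 0.685 and 12.6 CPM at 16 weeks in BALB/c. In NOR it was at 3.36, 4.18 and 3.16 CPM at 3 weeks, 3.46, 3.1 and 3.58 CPM at 8 weeks and 5.32, 7.73 and 5.53 CPM at 16 weeks. The NOR libraries lay above all BALB/c libraries at 3 and 8 weeks, and at 16 weeks above those of replicates 1 and 2 but below replicate 3. Alox12e passed the count minimum only through the 3 NOR groups. The log2 fold change was 3.55 (SE 1.06, adjusted p = 0.0282) at 3 weeks, 3.28 (SE 1.01, adjusted p = 0.0203) at 8 weeks and 0.41 at 16 weeks (adjusted p = 0.628). Without replicate 3 of the 16-week BALB/c group it was called higher in NOR at 16 weeks too, with a log2 fold change of 3.56 (SE 0.39, adjusted p = 1.02e-06). Without replicate 2 of the 3-week NOR group the 3-week value was 3.41 (SE 1.19, adjusted p = 0.0758), not called. The 3-week call was lost in 5 of 12 other settings and the 8-week call in 2 of 12, each time on leaving out 1 library, with the log2 fold change between 2.78 and 4.36 throughout. DESeq2 gave no adjusted p for this gene at any age.

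That 16-week BALB/c replicate 3 also held 31 counts of Alox15, against 0 and 2 in the others, and 4.47 CPM of the duct keratin Krt19, against 0.855 and 0.533. Its B cell marker sum was 6.25 CPM, against 0.808 and 0.533. Alox12, the platelet-type enzyme, was at 4.94 ± 0.628 CPM in BALB/c against 7.19 ± 0.233 CPM in NOR at 16 weeks (log2 fold change 0.54, SE 0.19, adjusted p = 0.023, under the 2-fold cutoff).

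Of the 8 prostanoid receptors in the table, 5 were tested and 3 were called, Ptger4 and Ptgir at 8 and 16 weeks and Ptger2 at 16 weeks (all genes, 11.6% and 19.4%). Ptger4 (chr15:5233404-5243831, minus strand) encodes the EP4 receptor for prostaglandin E. BALB/c glands held 0.383, 0.0807 and 0.57 CPM at 3 weeks, 0.315, 0.14 and 0.169 CPM at 8 weeks and 0.238, 0.152 and 0.865 CPM at 16 weeks. The NOR libraries were at 0.214, 0.0951 and 0.352 CPM at 3 weeks, 1.82, 0.992 and 1.06 CPM at 8 weeks and 2.9, 5.65 and 3.3 CPM at 16 weeks. The strains overlapped at 3 weeks, and at 8 and 16 weeks every NOR library was above every BALB/c library. Its log2 fold change was -0.83 at 3 weeks (adjusted p = 0.581), 2.63 (SE 0.61, adjusted p = 0.00294) at 8 weeks and 3.16 (SE 0.47, adjusted p = 1.82e-05) at 16 weeks, and the change of the difference from 3 to 16 weeks was 3.99 (SE 0.94, adjusted p = 0.00557). Without replicate 3 of the BALB/c group, its highest library, the 16-week value was 4.29 (SE 0.55, adjusted p = 5.03e-06).

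Ptger2 (chr14:44988111-45003820, plus strand) encodes the EP2 receptor, which like EP4 raises cyclic AMP. Its counts in BALB/c were 1, 0 and 1 at 3 weeks, 0, 0 and 0 at 8 weeks and 0, 0 and 3 at 16 weeks. In NOR they were 0, 0 and 0, 8, 0 and 4 and 11, 52 and 13, the last corresponding to 0.759, 2.04 and 1.38 CPM against 0, 0 and 0.144 CPM in BALB/c. The gene was thus detected in all libraries of the 16-week NOR group and in at most 2 of any other group. By pooled counts over raw library totals, NOR exceeded BALB/c at 16 weeks by a ratio of 34.2 (95% counting interval 11.3 to 169). The fitted log2 fold change, on TMM-scaled sizes, was 4.54 (adjusted p = 4.14e-04), in a gene that passed the count minimum only through this NOR group. Without replicate 3 the BALB/c group held no count and the adjusted p was 6.52e-04. At 8 weeks the 12 NOR counts stood against 0 in BALB/c, at least 4.08-fold higher by a floor of 3 counts over the group (adjusted p = 0.0507).

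Ptgir (chr7:16906490-16910905, plus strand) encodes the prostacyclin receptor. The BALB/c libraries were at 0.219, 0.484 and 0.127 CPM at 3 weeks, 0.0786, 0.35 and 0.169 CPM at 8 weeks and 0.38, 0.381 and 0.384 CPM at 16 weeks. NOR glands held 0.214, 0.57 and 0.703 CPM at 3 weeks, 1.23, 0.744 and 0.705 CPM at 8 weeks and 0.966, 1.49 and 1.49 CPM at 16 weeks. All NOR libraries of 8 and 16 weeks lay above the BALB/c ones of their age. Its log2 fold change was 2.11 (SE 0.51, adjusted p = 0.00404) at 8 weeks and 1.77 (SE 0.43, adjusted p = 0.00189) at 16 weeks. At 3 weeks, where the strains overlapped, it was 0.74 (adjusted p = 0.467).

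By level per kb, Ptger1, the EP1 receptor, was the main prostanoid receptor gene in every group, with 78.7% ± 4.27 of the summed level of the 8 genes in BALB/c and 59.6% ± 4.48 in NOR at 16 weeks. Ptger4 held 4.56% ± 4.12 and 18.4% ± 3.28. The sum was 3.11 ± 0.399 CPM per kb in BALB/c and 7.08 ± 1.43 in NOR. The log2 fold change of Ptger1 was 0.36, 0.52 and 0.79 at 3, 8 and 16 weeks (adjusted p = 0.133, 0.0126 and 1.62e-04), under the 2-fold cutoff each time. Ptger3 was not called. Ptgfrn, a membrane protein that limits signalling of the prostaglandin F receptor, was at 16.3 ± 0.64 CPM in BALB/c against 22.6 ± 0.782 CPM in NOR at 8 weeks (log2 fold change 0.47, SE 0.08, adjusted p = 1.10e-04) and at 16.5 ± 1.07 CPM and 17.9 ± 0.505 CPM at 16 weeks.

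Ptafr (chr4:132564067-132580866, plus strand) encodes the receptor for PAF, whose breakdown enzyme is Pla2g7. In BALB/c it was at 0.438, 0.646 and 0.253 CPM at 3 weeks, 0.786, 1.05 and 0.903 CPM at 8 weeks and 0.855, 0.228 and 1.06 CPM at 16 weeks. The level in NOR was 0.429, 0.38 and 0.879 CPM at 3 weeks, 2.29, 2.42 and 2.12 CPM at 8 weeks and 3.11, 4.27 and 3.19 CPM at 16 weeks. The strains overlapped at 3 weeks and lay apart from 8 weeks on. Its fitted log2 fold change was 0.22 at 3 weeks (adjusted p = 0.845), 1.30 (SE 0.34, adjusted p = 0.00735) at 8 weeks and 2.23 (SE 0.33, adjusted p = 1.98e-05) at 16 weeks, and the difference rose by 2.01 (SE 0.62, adjusted p = 0.0246) from 3 to 16 weeks. Cysltr1, a receptor for cysteinyl leukotrienes, was at 0.957 ± 0.12 CPM in BALB/c against 1.4 ± 0.237 CPM in NOR at 16 weeks, with a log2 fold change of 0.56 (SE 0.30, adjusted p = 0.123).

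**Figure D5:**
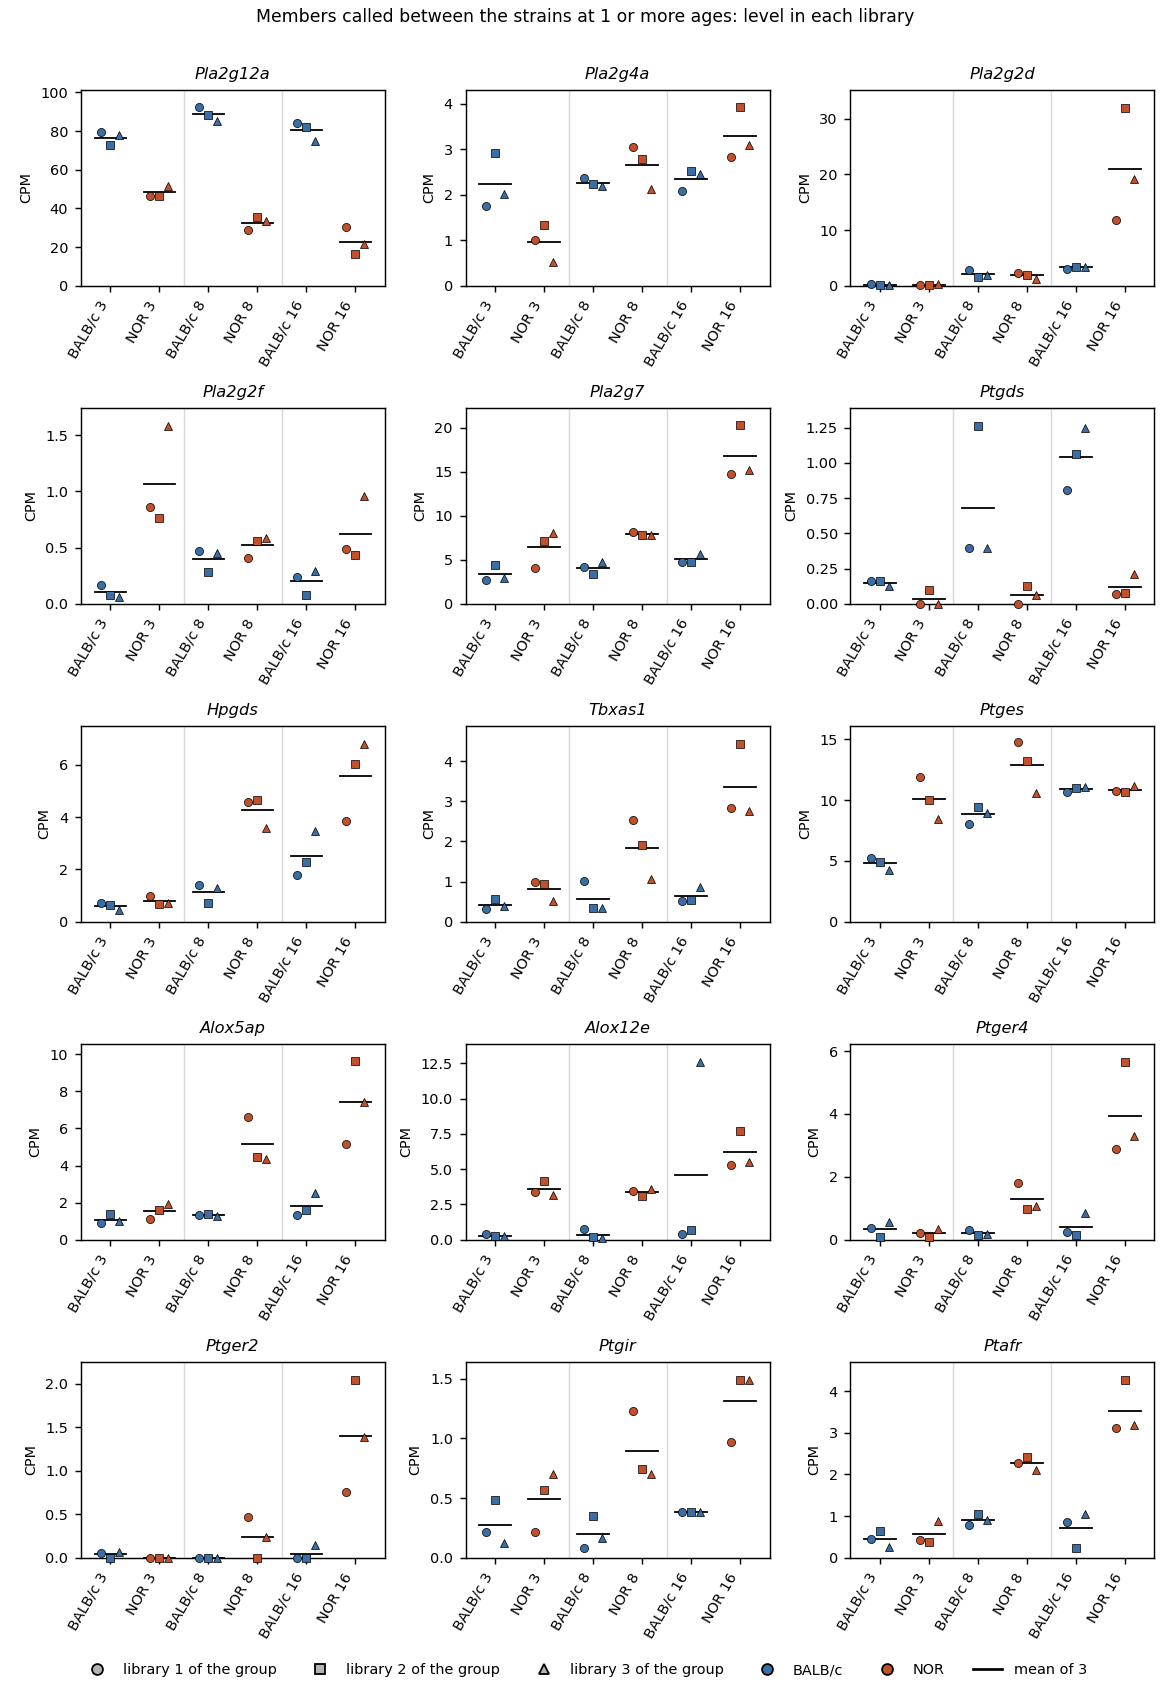
Level in CPM (y axes, from 0) of the 15 genes called between the strains at 1 or more ages, in each of the 18 libraries (points, shaped by replicate number) by strain and age in weeks, with a line at the mean of 3. Pla2g12a and Ptgds are lower in NOR at 8 and 16 weeks, Pla2g2d separates the strains at 16 weeks only, and Ptges separates them at 3 and 8 weeks but not at 16.

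Of the 23 genes that were not tested, 4 were called higher in NOR at 16 weeks in a fit without a count minimum, in which 12.2% of all genes were called higher. Tbxa2r, the thromboxane receptor, held 1, 2 and 2 counts in BALB/c and 7, 34 and 10 in NOR at 16 weeks, a ratio of 13.8 (95% counting interval 5.53 to 44.2). Cysltr2 held 0, 0 and 1 and 2, 22 and 11 counts, a ratio of 47.2 (95% counting interval 7.94 to 1919), and Pla2g4f 1, 1 and 1 and 4, 25 and 6, a ratio of 15.7 (95% counting interval 4.96 to 80.03). Alox8 held 0, 0 and 1 and 1, 8 and 3 counts, a ratio of 16.2 (95% counting interval 2.4 to 692). These 4 are given because of that fit. Their ratios use raw library totals, and their intervals cover counting error only. In that fit, on TMM-scaled sizes, their log2 fold changes were 3.31, 4.77, 3.42 and 3.23 in the same order. The same fit called Alox8 higher in NOR at 8 weeks too (log2 fold change 4.49, adjusted p = 0.0332). Its counts there were 0, 0 and 0 in BALB/c and 5, 2 and 2 in NOR. The share of all genes called at 8 weeks in that fit is not given here. At 16 weeks the leukotriene B4 receptor Ltb4r1 held 13, 5 and 6 and 5, 20 and 7 counts, and Ptgdr, a receptor for prostaglandin D, 1, 0 and 1 and 3, 8 and 1. Pla2g12b, Pla2g10, Pla2g5, Pla2g1b, Pla2g2e, Pla2g3, Pla2g4e, Aloxe3, Ltb4r2 and Ptgfr held at most 8 counts and Pla2g4c at most 19 in any library.

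Within BALB/c, 5 of the 36 genes were called higher at 8 than at 3 weeks and 0 lower, while 6.95% of all genes were called (4.37% higher, 2.58% lower). They were Pla2g2d (3.55, SE 0.58, adjusted p = 1.22e-04), Hpgd, Ptgds (2.11), Pla2g2f (1.83) and Cysltr1, which rose from 0.486 ± 0.17 CPM to 0.982 ± 0.225 CPM (1.00, SE 0.35, adjusted p = 0.0394). Where the 2-fold cutoff was kept, other settings gave 1 to 6 calls. From 8 to 16 weeks in BALB/c 0 of the 36 genes were called by edgeR with the count minimum or by DESeq2, with 5 at an unadjusted p under 0.05, beside 0.441% of all genes (0.426% higher, 0.015% lower). Without the count minimum Ptgs2 and Alox12e were called higher, and in the fit of only these groups Ptgs2.

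Within NOR, 6 genes were called higher at 8 than at 3 weeks and 0 lower (all genes, 12.2%, of which 8.88% higher and 3.27% lower). Pla2g2d rose by 3.43 (SE 0.67, adjusted p = 6.06e-04). The others were Ptger4 (2.64), Hpgds (2.37), Ptafr (2.15), Alox5ap (1.79) and Pla2g4a (1.38). From 8 to 16 weeks another 6 genes were called higher and 0 lower (all genes, 9.66%, of which 8.88% higher and 0.778% lower), namely Pla2g2d (3.49, SE 0.31, adjusted p = 2.58e-06), Ptger2 (2.55), Ptger4 (1.64), Pla2g4b (1.5), Ptgs1 (1.15) and Pla2g7 (1.10). Without replicate 2 of the 16-week NOR group only Pla2g2d and Pla2g4b were called. By adjusted p alone, 11 and 0 genes differed between 8 and 3 and between 16 and 8 weeks in BALB/c (all genes, 27.9% and 1.76%), and 12 and 12 in NOR (33.8% and 36.9%). The 8-week libraries enter both comparisons of a strain.

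Whether the strain difference changed between 3 and 16 weeks was tested directly, and a change was called for 7 of the 36 genes, beside 10.7% of all genes (7.51% upward, 3.15% downward). It was positive for Ptger4, Ptafr, Pla2g4b, Pla2g4a and Alox5ap and negative for Pla2g12a and Ptges. For Hpgds, Tbxas1, Pla2g2d and Pla2g7 the change was 0.69, 1.31, 2.71 and 0.85 (adjusted p = 0.339, 0.151, 0.0886 and 0.050003), none of which was called. By adjusted p alone 7 genes changed from 3 to 16 weeks (all genes, 24.9%) and 2 from 8 to 16 weeks (8.01%).

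Of the leukocyte markers, those of T cells, B cells, macrophages and dendritic cells were higher in NOR as sums at 8 and 16 weeks. T cell markers summed to 0.998 to 1.83 CPM in BALB/c against 55.2 to 134 CPM in NOR at 16 weeks, with 6 of 6 called, and to 0.559 to 1.02 and 10.2 to 26.5 CPM at 8 weeks, again with 6 of 6. B cell markers summed to 0.533 to 6.25 and 136 to 443 CPM at 16 weeks and 0.0786 to 0.733 and 7.5 to 23.5 CPM at 8 weeks, with 6 of 6 called at both ages. Dendritic cell markers summed to 4.09 to 5.43 and 16.2 to 33.8 CPM at 16 weeks with 4 of 5 called. Neutrophil markers stayed at 1.28 to 5.09 CPM in BALB/c against 3.31 to 5.80 CPM in NOR, and 1 of their 5 genes, Csf3r, was tested and called. Plasma cell markers summed to 569 to 652 CPM in BALB/c and 385 to 533 CPM in NOR at 16 weeks. Their median log2 fold change was -0.31, and 1 of 3 tested genes was called higher. Mast cell markers had medians of -0.72 and -0.46 at 8 and 16 weeks, with 0 of 5 called at either age. At 3 weeks 0 of 6 T cell and 0 of 6 B cell markers were called. Of the 10 genes called higher at 16 weeks, 8 were highest in replicate 2 of the NOR group and 8 lowest in replicate 1, and the T cell sum in replicates 1, 2 and 3 was 55.2, 133.6 and 89.4 CPM. Their part in these results was not tested.

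Genes around the same pathway were taken from lists of 61 genes, of which 50 were tested. They gave 4 genes higher and 3 lower in NOR at 3 weeks (all genes, 3.54% and 1.71%), 9 and 1 at 8 weeks (8.93% and 2.65%), and 17 and 2 at 16 weeks (14.1% and 5.22%). Of the enzymes that make polyunsaturated fatty acids, 4 of 4 tested were called higher at 16 weeks and 0 at 8 weeks (Elovl5 1.30, Fads1 1.45, Fads2 1.85 and Fads3 1.37). Among 12 genes of arachidonate release and reacylation, 3 were higher and 1 lower at both later ages: the acyltransferases Lpcat1, Lpcat2 and Lpcat4 (2.55, 2.62 and 2.28 at 16 weeks), and the monoglyceride lipase Mgll (-1.38), which was lower at 3 weeks too (-1.10). Of 8 tested receptors for related lipid mediators, 2, 4 and 6 were higher at 3, 8 and 16 weeks, among them at 16 weeks Gpr183 (3.87), the receptor for oxysterols, and Gpr132 (2.74). In the metabolism of leukotriene C4, Ggt1 was lower (-1.70) and Ggt5 and Dpep2 higher (1.65 and 1.54) among 5 tested at 16 weeks. Among 9 tested genes of the cytochrome P450 branch 2 were higher at 16 weeks, Cyp4f18, an enzyme that inactivates leukotriene B4, and Cyp4f16 (2.28), and 2 lower at 3 weeks. Of 4 genes of PAF breakdown Pafah2 was higher at 3 and 8 weeks (1.77 and 1.42), and of 8 tested prostaglandin reductases and transporters 0 were called at any age.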

How the data were processed

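Poly(A) RNA of exorbital LGs was sequenced by the authors as stranded single-end reads of 18 libraries, aligned with HISAT2 to mm10 and counted per gene over exons with featureCounts 1.6.2. The deposited values are raw read counts, 1 table of 23337 genes. Per the file header the counting used no strand, and reads that mapped to several places or genes were not counted, so near-identical genes may be undercounted.

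From these counts, edgeR 4.0.16 (R 4.3.3) fitted 1 mean per group over all 18 libraries in 6 groups without covariates, with TMM factors and filterByExpr (count minimum 10, total 15), which left 13376 genes. Strains at each age, ages within each strain, and how far the strain difference moved with age were tested by the quasi-likelihood F-test with Benjamini-Hochberg adjustment over all genes tested. Genes were called at an adjusted p up to 0.05 when the log2 fold change was 1 or more in size. CPM uses TMM-scaled library sizes, levels per kb divide by exon length, values after ± are SDs of 3 libraries, and SEs are the log2 fold change over the root of F. Ratios with a counting interval use pooled counts over raw library totals, without TMM factors. The common coefficient of variation was 13.8%. Libraries of a group came from different mice or pools of mice, and p-values measure the spread between these samples. The code was tested on simulated data. Promoters came from RefSeq.

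The genes and the lists were chosen with earlier results of these data known. Values in every library are given for genes called between the strains and for the 5 with the highest level per kb, genes called only between ages by group means, genes under the minimum by counts, and other lists by counts with up to 4 called genes. DESeq2 1.42.0, other scalings and filters, a replicate block and leaving out each library were alternatives. Replicate numbers name different animals or pools of animals. Same-numbered deviations correlated between -0.0991 and 0.395 over 9 pairs, 5 of them over 0.1. The labels do not say whether same-numbered samples shared more than a number, and the reason for these correlations was not tested.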

Additional observations from a re-analysis of the deposited data

Results flagged for a closer look

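Whether the strains differed more or less at 16 weeks than earlier was tested directly by an interaction, and 8 results passed the adjusted p and 2-fold cutoffs. From 3 to 16 weeks the difference of NOR over BALB/c rose by 3.99 for Ptger4, 2.01 for Ptafr, 1.64 for Pla2g4b, 1.61 for Pla2g4a and 1.55 for Alox5ap. It changed by -1.17 for Pla2g12a and -1.11 for Ptges. For Pla2g4a the strain difference was -1.11 at 3 weeks and 0.50 at 16 weeks, the latter not called (adjusted p = 0.071). From 8 to 16 weeks the difference rose by 2.83 for Pla2g2d. Libraries of 3 weeks are single mice and the others pools, so that age and pooling cannot be told apart.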

How the results depend on the processing

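Of the 25 calls between the strains, apart from glmTreat 19 were kept in every test, scaling, filter, block and left-out library that gave a value, and none of these 314 values reversed. Calls of Alox12e at 3 and 8 weeks, Hpgds and Pla2g2f at 16 weeks, and Pla2g4a and Ptges at 3 weeks were lost in at least 1. With glmTreat, which tests against a 2-fold difference, 10 calls were lost, also those of Ptafr, Tbxas1 and Ptgir at 8 weeks and Ptgir at 16 weeks, and 15 of the 19 remained. By adjusted p alone, 7, 15 and 20 genes differed between the strains at 3, 8 and 16 weeks, 11 between 8 and 3 weeks in BALB/c, 12 in NOR, 12 between 16 and 8 weeks in NOR, and 2 in the change from 8 to 16 weeks. The counts with glmTreat were 1 and 5 at 3 and 8 weeks, 1 for BALB/c between 8 and 3 weeks, 1 for NOR between 16 and 8 weeks, and 1 and 0 for the change from 3 to 16 and 8 to 16 weeks. For BALB/c between 8 and 3 weeks DESeq2 called 3 genes, a mean CPM of at least 1 left 2, and fitting only the groups compared left 3. For BALB/c between 16 and 8 weeks the fit without a count minimum called 2 genes and the fit of only these groups 1. Without a count minimum the change from 8 to 16 weeks was called for 2.

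Leaving out 1 library gave 2 to 3 calls between the strains at 3 weeks, 9 to 10 at 8 weeks and 13 to 19 at 16 weeks, with 37 to 43 genes tested at 16 weeks since smaller groups lower the minimum. It gave 2 to 6 and 0 to 2 calls for BALB/c between 8 and 3 and between 16 and 8 weeks, and 6 to 8 and 2 to 11 for NOR. For the change from 3 to 16 weeks it gave 4 to 8 calls and from 8 to 16 weeks 1 to 2. The count of 19 came without replicate 3 of the 16-week BALB/c group and 18 without replicate 1 of the NOR group. The count of 2 for NOR came without replicate 2 at 16 weeks and 11 without replicate 1, and the count of 4 without replicate 1 of the 3-week NOR group. With the replicate block, counts were 4, 9, 12, 5, 0, 6, 6, 7 and 1 in the order of the 9 comparisons, none moved by over 1.5 times, and 9 of 18 libraries correlated best with their own number. For glmTreat and for left-out libraries the share of all genes called is not given here, so these counts describe stability only. Beyond the settings named, the causes were not tested. Genes near 3 counts a library, such as Ptger2, Ptgds and Pla2g2f, are limited by depth.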
